A study of Mus musculus with 6 samples.

Results

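Macrophages read colony-stimulating factors and interleukins through a small set of surface receptors, and 10 of the genes that encode them are described here. They were taken by symbol from the deposited table of 13886 genes. They comprise 5 receptor genes for colony-stimulating factors (Csf1r, Csf2ra, Csf2rb, Csf2rb2 and Csf3r) and 5 interleukin receptor chains (Il4ra, Il13ra1, Il6st, Il10ra and Il10rb). All 10 were in the table, and all 10 passed the filter of a mean of at least 1 TPM (transcripts scaled to a common library total), so none is missing from the counts below.

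The RNA came from liver macrophages of Lyz2cre/+.Egr2fl/fl mice (3 libraries) and of Egr2fl/fl littermates (3 libraries), all fed CDA-HFD, a high-fat diet that lacks choline and produces steatohepatitis. Both genotypes carry loxP-flanked alleles of Egr2, which encodes a zinc-finger transcription factor. Lyz2cre/+.Egr2fl/fl mice also carry Cre in place of 1 Lyz2 allele, so Cre is made in monocytes, macrophages and neutrophils, and the Egr2fl/fl mice carry no Cre. The study sorted these cells as CD11b+ Ly6G- Ly6C-lo F4/80+. Its methods name male mice for this diet, while the labels give no age, sex or time on the diet for these 6 samples.

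Csf1r encodes the receptor tyrosine kinase for CSF-1 and IL-34, on which most tissue macrophages, Kupffer cells included, depend for survival. The other receptors have no kinase of their own. They are assembled from chains that bind Janus kinases, and these phosphorylate STAT transcription factors. Csf2ra encodes the ligand-binding chain for GM-CSF, and Csf2rb encodes the beta chain shared by the receptors for GM-CSF, IL-3 and IL-5. Csf2rb2 is a second beta chain of the mouse that serves IL-3 alone. Csf3r encodes the G-CSF receptor, best known from neutrophils. Il4ra pairs with Il2rg to bind IL-4, or with Il13ra1 to bind IL-4 or IL-13. Il6st encodes gp130, the signalling chain shared by IL-6, IL-11, LIF, oncostatin M and CLCF1. Il10ra binds IL-10 and signals together with Il10rb, a chain that other cytokines of the IL-10 family also use.

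The beta chain genes are near-copies that lie side by side, and matching stretches of their coding sequence are shown because this decides how far their values can be told apart. In GENCODE vM21 on GRCm38, Csf2rb lies at chr15:78325752-78353847 on the plus strand and Csf2rb2 at chr15:78282507-78305721 on the minus strand. They are 20030 bases apart with 0 annotated genes between them. Their coding sequences of 2691 and 2637 bases were identical at 95.2% of 2631 aligned positions, and the longest identical run was 242 bases. Of all 75-base windows in the coding sequence of Csf2rb, 15.8% occurred whole in Csf2rb2, and of all 150-base windows 6.49%. The study's methods name single-end reads of 75 bases and paired-end reads of 150 bases, each for different bulk libraries. Among 60-base stretches aligned without a gap, the one with the most differences held 13 of them, which are in capitals. It covers coding bases 304 to 363 of Csf2rb and 307 to 366 of Csf2rb2, written 5′ to 3′:
Csf2rb: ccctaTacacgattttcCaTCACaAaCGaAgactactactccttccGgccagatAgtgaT
Csf2rb2: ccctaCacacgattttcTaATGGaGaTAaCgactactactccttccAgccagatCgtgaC
How reads from the identical parts were shared between the genes is not given in the sources used here. The sum of both genes is therefore given beside their own values, though it too depends on how these reads were assigned, since each gene was scaled by its own length and reads left out in counting are missing from it.

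The promoters of the receptor genes whose level passed the test, and of Il13ra1, which holds an Egr-type motif, are shown next. RefSeq windows of 300 bases (GRCm38.p6, from 250 before to 50 after the annotated start) were found for 6 of the 10 genes, namely Csf2ra, Csf2rb2, Csf3r, Il4ra, Il13ra1 and Il6st. Both strands were searched for the Egr motifs GCGTGGGCG and GCGGGGGCG, the STAT motif TTCNNNGAA and the PU.1 motif GAGGAAGT. These were present in 0.612%, 2.91%, 8.30% and 3.20% of all 32851 promoter windows. Matches are in capitals, as they read on the strand of the gene, so a match on the other strand appears as its reverse complement. The 4 windows lie at chr19:61228369-61228668 (Csf2ra, minus strand), chr15:78305672-78305971 (Csf2rb2, minus strand), chr13:112463820-112464119 (Il6st, plus strand) and chrX:36111858-36112157 (Il13ra1, plus strand):
Csf2ra: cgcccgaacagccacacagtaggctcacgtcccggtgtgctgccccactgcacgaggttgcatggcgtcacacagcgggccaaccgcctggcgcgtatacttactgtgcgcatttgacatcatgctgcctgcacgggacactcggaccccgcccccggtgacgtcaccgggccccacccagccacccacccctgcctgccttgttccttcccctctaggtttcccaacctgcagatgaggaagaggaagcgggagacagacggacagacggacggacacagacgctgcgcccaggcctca
Csf2rb2: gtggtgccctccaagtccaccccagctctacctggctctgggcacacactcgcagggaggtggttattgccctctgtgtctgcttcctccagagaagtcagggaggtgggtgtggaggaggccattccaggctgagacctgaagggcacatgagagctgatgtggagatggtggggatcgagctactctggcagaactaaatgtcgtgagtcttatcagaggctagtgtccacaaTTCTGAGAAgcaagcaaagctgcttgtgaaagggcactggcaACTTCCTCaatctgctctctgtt
Il6st: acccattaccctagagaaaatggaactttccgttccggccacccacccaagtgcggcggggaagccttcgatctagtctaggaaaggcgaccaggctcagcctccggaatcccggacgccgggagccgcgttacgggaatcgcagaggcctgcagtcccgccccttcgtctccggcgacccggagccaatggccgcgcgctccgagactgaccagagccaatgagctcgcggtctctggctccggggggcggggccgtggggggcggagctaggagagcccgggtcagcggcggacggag
Il13ra1: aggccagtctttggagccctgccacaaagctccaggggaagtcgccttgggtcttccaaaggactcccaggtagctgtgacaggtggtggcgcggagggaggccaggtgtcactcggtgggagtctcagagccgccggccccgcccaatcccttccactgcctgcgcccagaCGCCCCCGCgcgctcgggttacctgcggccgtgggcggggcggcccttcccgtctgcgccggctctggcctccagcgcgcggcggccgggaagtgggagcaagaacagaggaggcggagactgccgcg
Csf2rb2 held 1 STAT match starting at -15 and 1 PU.1 match starting at 28, counted from the annotated start. Il13ra1 held 1 match to GCGGGGGCG starting at -78. Csf2ra, Csf3r, Il4ra and Il6st held no match in these windows. A match describes the letters only and is no evidence of a bound factor.

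Egr2, the deleted gene, went with the genotype labels. It was at 9.08, 9.64 and 10.5 TPM in Lyz2cre/+.Egr2fl/fl macrophages, against 123, 120 and 126 TPM in Egr2fl/fl macrophages, so the mean was 7.92% of that in Egr2fl/fl (limma, adjusted p = 5.75e-06). The libraries held at least 6497770 to 8569062 reads, as recovered from the steps of the TPM values. At an adjusted p below 0.05, 603 of 13777 tested genes had a higher level in Lyz2cre/+.Egr2fl/fl and 257 had a lower one. The 12 general macrophage markers were present in every library, with a summed level of 25780 to 26024 TPM in Lyz2cre/+.Egr2fl/fl and 25663 to 29016 TPM in Egr2fl/fl. Of these, Adgre1, Fcgr1, Mertk and C1qc were higher and Lyz2, the gene that carries Cre in the Lyz2cre/+.Egr2fl/fl mice, was lower, at a mean of 6502 TPM in Lyz2cre/+.Egr2fl/fl and 10719 TPM in Egr2fl/fl (limma, adjusted p = 0.00130). Markers of some other states and cells moved with genotype as well. Of 15 Kupffer cell markers 13 were higher (summed level 8632 to 10401 TPM in Lyz2cre/+.Egr2fl/fl and 4740 to 5369 TPM in Egr2fl/fl), and of 14 markers of lipid-associated macrophages 11 were lower (7570 to 8353 TPM in Lyz2cre/+.Egr2fl/fl and 10581 to 11153 TPM in Egr2fl/fl). Of 25 endothelial markers 24 were higher, with a summed level of 789 to 909 TPM in Lyz2cre/+.Egr2fl/fl and 172 to 208 TPM in Egr2fl/fl, and none was at 0. Of 15 tested hepatocyte markers 1 was higher, Trf, at a mean of 1057 TPM in Lyz2cre/+.Egr2fl/fl and 859 TPM in Egr2fl/fl (limma, adjusted p = 0.0118). The other 14, summed without Trf after its values were seen, did not pass in limma (0 with an unadjusted p below 0.05 and 0 with voom). Their sum was 125 to 307 TPM in Lyz2cre/+.Egr2fl/fl libraries and 226, 95.3 and 779 TPM in the Egr2fl/fl libraries, of which replicate 3 stands apart. Of 8 tested monocyte markers and 7 of dendritic cells 0 passed in limma. Unadjusted p was below 0.05 for 2 and 3 of them, and voom called 1 and 2. The monocyte sums overlapped. The dendritic cell sum was 916 to 955 TPM in Lyz2cre/+.Egr2fl/fl and 681 to 818 TPM in Egr2fl/fl. Higher were 1 of 9 stellate cell and fibroblast markers and 1 of 3 B cell markers. Lower was 1 of 4 T and NK cell markers. Of 3 mast cell, basophil and eosinophil markers 1 was higher and 1 lower. In bulk RNA, fewer cells of a type and less RNA per cell cannot be told apart.

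All receptor genes were measured in every library. In Lyz2cre/+.Egr2fl/fl macrophages the means ran from 40.1 TPM for Il6st to 1914 TPM for Csf1r, and in Egr2fl/fl macrophages from 25.0 to 1742 TPM for the same genes. At least 608 reads stood behind every member in every library (the lowest being Il13ra1), a counting error of at most about 4.06%. By level, Csf1r stood at rank 49 of 13886 genes, Csf2ra at 185, Il10ra at 463, Il10rb at 599 and Csf2rb at 818. Csf3r followed at 1273, Csf2rb2 at 1765, Il4ra at 2264, Il13ra1 at 2757 and Il6st at 4932. Neighbours in this order differed beyond their ranges with few exceptions. In Lyz2cre/+.Egr2fl/fl the ranges of Il4ra and Csf2rb2 overlapped, and in Egr2fl/fl those of Il10rb with Csf2rb and of Csf3r with Csf2rb2. Csf2rb2 was above Il4ra in all Egr2fl/fl libraries.

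**Figure D1:**
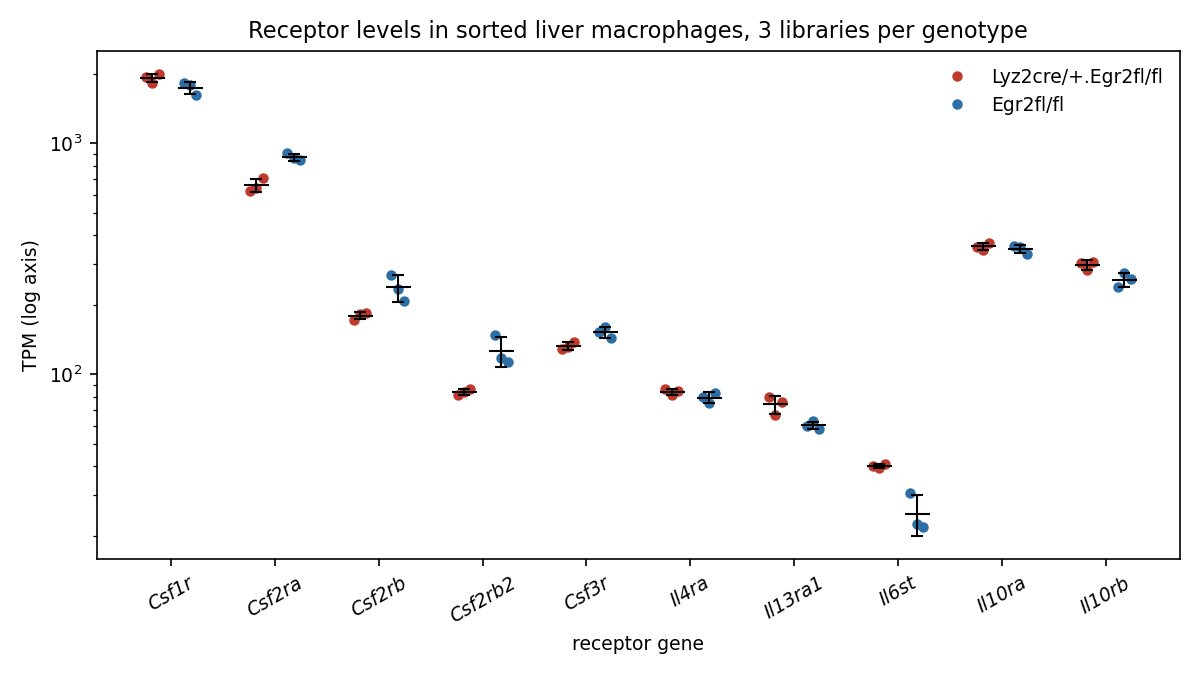
Level of the 10 receptor genes in TPM on a log axis, Lyz2cre/+.Egr2fl/fl in red and Egr2fl/fl in blue. Points are single libraries, and black bars are the mean and SD of 3. Csf2ra, Csf2rb and Csf2rb2 sit lower in Lyz2cre/+.Egr2fl/fl and Il6st sits higher, while Il4ra and Il10ra overlap between the genotypes.

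Between genotypes, Csf2ra and Csf2rb2, chains of the GM-CSF and IL-3 receptors, were lower and Il6st, the gene of gp130, was higher in Lyz2cre/+.Egr2fl/fl macrophages. These were 1 gene higher and 2 lower of the 10 at an adjusted p below 0.05. Of all tested genes 4.38% were higher, 1.87% were lower and 6.24% passed in either direction. The libraries of the genotypes did not overlap for 8 of the 10. For Csf1r, Il13ra1, Il6st and Il10rb all Lyz2cre/+.Egr2fl/fl libraries were above all Egr2fl/fl libraries, which was so for 17.0% of tested genes. For Csf2ra, Csf2rb, Csf2rb2 and Csf3r all were below, which was so for 8.27%. The median log2 difference was 0.06 over the members and 0.04 over all tested genes, and the median size of the difference, whatever its sign, was 0.25 over the members and 0.15 over all tested genes.

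**Figure D2:**
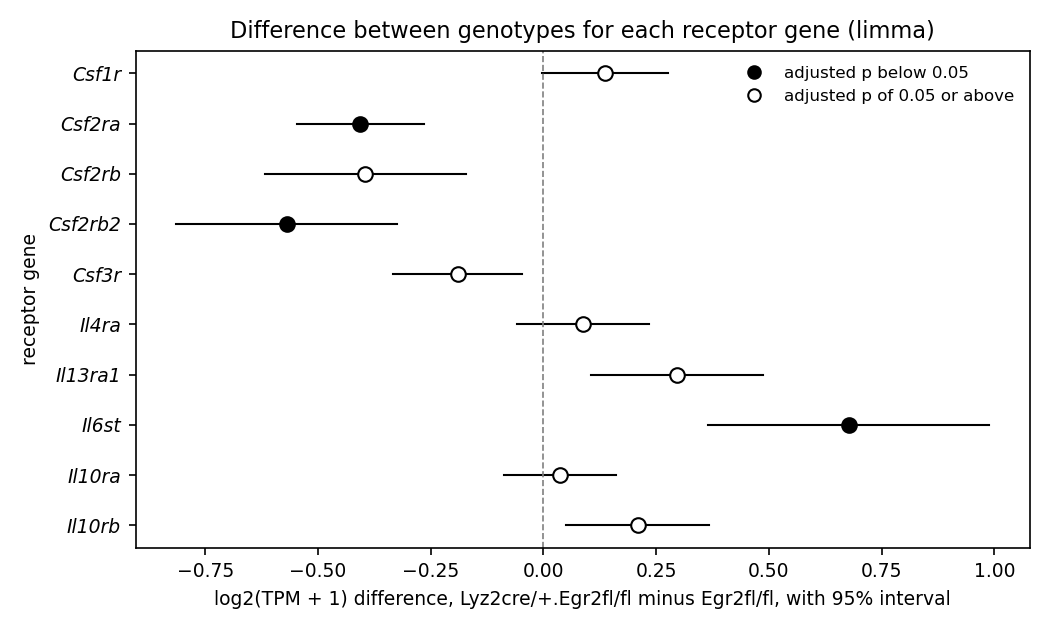
Difference in log2(TPM + 1), Lyz2cre/+.Egr2fl/fl minus Egr2fl/fl, for the 10 receptor genes, with 95% intervals from limma. Filled points passed an adjusted p below 0.05. Csf2ra and Csf2rb2 lie left of 0 and Il6st right of it, and the interval of Csf1r reaches from -0.003 to 0.28.

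Csf1r, the CSF-1 receptor gene, was the most abundant member in both genotypes. It lies on chromosome 18 from 61100598 to 61132149 (GRCm38, plus strand). Its level was 1925, 1827 and 1990 TPM in Lyz2cre/+.Egr2fl/fl macrophages, against 1820, 1785 and 1621 TPM in Egr2fl/fl macrophages. The groups were separated by a narrow gap, and the difference in log2(TPM + 1) of 0.14 ± 0.06 (SE) did not pass the test (limma, adjusted p = 0.264). Its exons share 873 bases with Hmgxb3 on the opposite strand, and this gene was at only 18.6 to 21.6 TPM over the 6 libraries. Whether strand was used in counting is not given in the sources used here, so reads from the shared bases may not be told apart. Of its ligands, Csf1 was at 6.05, 7.46 and 4.12 TPM in Lyz2cre/+.Egr2fl/fl macrophages and 10.1, 6.90 and 8.12 TPM in Egr2fl/fl macrophages, and these ranges overlapped (difference -0.46 ± 0.22, limma adjusted p = 0.315). Il34 was not analysed here.

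Csf2ra, which encodes the GM-CSF-binding chain, was lower in Lyz2cre/+.Egr2fl/fl macrophages. It was at 623, 641 and 708 TPM in Lyz2cre/+.Egr2fl/fl macrophages, against 904, 861 and 847 TPM in Egr2fl/fl macrophages. Every Lyz2cre/+.Egr2fl/fl library lay below every Egr2fl/fl library, and the mean was 75.5% of that in Egr2fl/fl. The log2 difference was -0.41 ± 0.06 (SE, 95% interval -0.55 to -0.27, limma adjusted p = 0.00958). This call was kept when any 1 of the 6 libraries was left out, with adjusted p between 0.0122 and 0.0434. It was lost by a small margin when limma was run without the mean-variance trend (adjusted p = 0.0543). The summed markers of lipid-associated macrophages given above were lower in the same libraries. Their part in the levels of Csf2ra, and of Csf2rb and Csf2rb2 below, was not tested.

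The shared beta chain gene Csf2rb was at 172, 183 and 184 TPM in Lyz2cre/+.Egr2fl/fl macrophages, against 270, 235 and 208 TPM in Egr2fl/fl macrophages. The groups did not overlap, but the Egr2fl/fl libraries were spread widely, with coefficients of variation of 3.67% in Lyz2cre/+.Egr2fl/fl and 13.1% in Egr2fl/fl. Its mean was 75.6% of that in Egr2fl/fl, close to the ratio for Csf2ra, and the difference of -0.39 ± 0.09 did not pass the test (limma, adjusted p = 0.0586). It passed with Egr2fl/fl replicate 3 left out (adjusted p = 0.0262), with median-of-ratios scaling (0.0296), with a filter at a mean of 5 TPM (0.0488) and with voom on the recovered reads (0.0065).

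Csf2rb2, the IL-3-specific beta chain of the mouse, showed the larger difference of the pair. It was at 81.5, 84.1 and 86.8 TPM in Lyz2cre/+.Egr2fl/fl macrophages, against 148, 118 and 113 TPM in Egr2fl/fl macrophages. The groups did not overlap, and Egr2fl/fl replicate 1 stood highest for all 3 genes of the GM-CSF and IL-3 receptors. The mean was 66.7% of that in Egr2fl/fl, with a difference of -0.57 ± 0.10 (95% interval -0.81 to -0.32, limma adjusted p = 0.0225). The call was lost when any 1 of the 3 Lyz2cre/+.Egr2fl/fl libraries was left out (adjusted p = 0.0898, 0.0661 and 0.0645 without replicates 1, 2 and 3) and in limma without the trend (0.0662), and the difference stayed between -0.64 and -0.45 over all alternatives.

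The TPM values of Csf2rb and Csf2rb2 together came to 253, 267 and 270 TPM in Lyz2cre/+.Egr2fl/fl macrophages and 418, 352 and 321 TPM in Egr2fl/fl macrophages. This sum, an alternative chosen after seeing the data, differed by -0.45 ± 0.09 (limma, adjusted p = 0.0369). Another chain that joins Csf2rb is encoded by Il3ra, the IL-3-binding chain. It was at 47.6, 44.2 and 42.3 TPM in Lyz2cre/+.Egr2fl/fl macrophages and 56.9, 51.2 and 55.0 TPM in Egr2fl/fl macrophages, without overlap, and its difference of -0.28 ± 0.07 did not pass (limma, adjusted p = 0.0874). Il5ra and the ligand gene Csf2 were not analysed here.

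Csf3r, the G-CSF receptor gene (chr4:126024550-126044440, plus strand), was at 129, 131 and 139 TPM in Lyz2cre/+.Egr2fl/fl macrophages, against 152, 160 and 143 TPM in Egr2fl/fl macrophages. The groups did not overlap, the gap between them being small, and the difference of -0.19 ± 0.06 did not pass the test (limma, adjusted p = 0.136). Csf3r also marks neutrophils and is on a list of 14 neutrophil markers. Of these, Ly6g, Cxcr2, Ngp, Camp, Stfa2l1, Elane and Mpo were not analysed here. The 6 others besides Csf3r were summed. They came to 18.9 to 30.9 TPM in Lyz2cre/+.Egr2fl/fl and 21.1 to 37.3 TPM in Egr2fl/fl, a fraction of the level of Csf3r itself. Among them S100a8 (1.4 to 2.2 TPM in Lyz2cre/+.Egr2fl/fl and 3.94 to 8.49 TPM in Egr2fl/fl) and S100a9 (0 to 0.693 TPM in Lyz2cre/+.Egr2fl/fl and 2.93 to 3.39 TPM in Egr2fl/fl) passed the test as lower, 0 were higher and the other 4 did not pass. Over all tested genes limma called 1.87% lower and 4.38% higher. The recovered reads, which are lower bounds, reached 14 per library for S100a8 and 6 for S100a9. The part of these 6 markers in the level of Csf3r was not tested. Csf3, which encodes G-CSF, was not analysed here.

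Neither receptor chain for IL-4 and IL-13 among the 10 genes passed the test. Il4ra (chr7:125552120-125579474, plus strand) was at 86.7, 81.6 and 84.6 TPM in Lyz2cre/+.Egr2fl/fl macrophages, against 79.8, 74.9 and 83.3 TPM in Egr2fl/fl macrophages. These ranges overlapped, and the 95% interval of the difference ran from -0.06 to 0.23 (limma, adjusted p = 0.519). An antisense gene, Gm44876, shares 571 exonic bases with it and was at 4.08 to 6.15 TPM in Lyz2cre/+.Egr2fl/fl and 4.0 to 7.92 TPM in Egr2fl/fl, with the same limit on strand as for Csf1r. Il13ra1 (chrX:36112110-36171259, plus strand) was at 79.8, 66.8 and 76.3 TPM in Lyz2cre/+.Egr2fl/fl macrophages, against 59.5, 62.7 and 58.2 TPM in Egr2fl/fl macrophages. All 3 Lyz2cre/+.Egr2fl/fl libraries were above the Egr2fl/fl libraries, replicate 2 by the least, and the difference of 0.30 ± 0.08 did not pass (limma, adjusted p = 0.0902). Without that replicate it was 0.37 and passed (adjusted p = 0.0415). Il2rg, the common gamma chain that is the other partner of Il4ra, was at 100 to 109 TPM in Lyz2cre/+.Egr2fl/fl and 100 to 114 TPM in Egr2fl/fl (difference -0.05 ± 0.07, limma adjusted p = 0.780). Il4 and Il13 were not analysed here.

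Il6st, the gene of gp130, was the least abundant member and had the largest difference of the 10. It lies at chr13:112464070-112510086 on the plus strand. Its level was 40.1, 39.3 and 41.0 TPM in Lyz2cre/+.Egr2fl/fl macrophages, against 30.8, 22.5 and 21.8 TPM in Egr2fl/fl macrophages. The groups did not overlap, and Egr2fl/fl replicate 1 stood nearest to the Lyz2cre/+.Egr2fl/fl libraries. The mean was 1.60 times that in Egr2fl/fl, with a difference of 0.68 ± 0.13 (95% interval 0.37 to 0.99, limma adjusted p = 0.0287). Leaving out Egr2fl/fl replicate 1 gave 0.83 (adjusted p = 0.00557), while leaving out any of the other 5 libraries lost the call, with adjusted p between 0.0742 and 0.102 and differences between 0.59 and 0.69. The call was also lost in limma without the trend (adjusted p = 0.0662). The summed endothelial and Kupffer cell markers given above were both higher in the same 3 libraries, and their part in the level of Il6st was not tested.

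The chains that join gp130 went in different directions. Lifr, the LIF receptor chain, was higher, with 7.14, 6.38 and 9.27 TPM in Lyz2cre/+.Egr2fl/fl macrophages against 3.63, 2.77 and 2.94 TPM in Egr2fl/fl macrophages (difference 1.06 ± 0.18, limma adjusted p = 0.0185). Il11ra1, the IL-11-binding chain, which has near-identical copies in the mouse genome that can share its reads, was lower, with 27.7, 34.3 and 35.9 TPM in Lyz2cre/+.Egr2fl/fl against 48.2, 55.8 and 45.7 TPM in Egr2fl/fl (difference -0.60 ± 0.12, limma adjusted p = 0.0323). The groups overlapped for neither gene, yet Il11ra1 lost its call whichever library was left out, and Lifr kept it in 2 of those 6 fits. Il6ra, which binds IL-6, was at 79.1, 81.6 and 85.7 TPM in Lyz2cre/+.Egr2fl/fl and 71.8, 68.6 and 61.5 TPM in Egr2fl/fl, also without overlap, and its difference of 0.29 ± 0.07 did not pass (limma, adjusted p = 0.0792). Osmr was not analysed here. As with Il6st, the part of the endothelial and Kupffer cell markers in the level of Lifr was not tested.

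Among the ligands of gp130, Clcf1, which encodes a neurotrophic cytokine that acts through gp130 and the LIF receptor chain, had the clearest difference. It was at 25.8, 24.3 and 26.8 TPM in Lyz2cre/+.Egr2fl/fl macrophages, against 59.0, 52.9 and 57.1 TPM in Egr2fl/fl macrophages. The groups were far apart and the mean ratio was 0.455 (difference -1.10 ± 0.08, limma adjusted p = 0.000498), a call kept in all 17 alternatives. Il6 was at 6.40, 8.79 and 4.08 TPM in Lyz2cre/+.Egr2fl/fl and 2.79, 0.946 and 4.89 TPM in Egr2fl/fl, with overlap and a lower bound of 6 reads in the library with the fewest, and did not pass (limma, adjusted p = 0.248).

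Neither chain of the IL-10 receptor passed the test. Il10ra, the IL-10-binding chain (chr9:45253837-45269149, minus strand), was at 355, 346 and 372 TPM in Lyz2cre/+.Egr2fl/fl macrophages, against 358, 357 and 332 TPM in Egr2fl/fl macrophages. The ranges overlapped, and the 95% interval of the difference ran from -0.09 to 0.16 (limma, adjusted p = 0.773). Il10rb (chr16:91406164-91425834, plus strand) was at 302, 282 and 308 TPM in Lyz2cre/+.Egr2fl/fl macrophages, against 239, 276 and 258 TPM in Egr2fl/fl macrophages. These did not overlap, though by a narrow gap, and the difference of 0.21 ± 0.07 did not pass (limma, adjusted p = 0.138). Its exons share 569 bases with Gm21970 on the same strand, which was not analysed here. Il10 itself varied widely, at 52.2, 102 and 35.4 TPM in Lyz2cre/+.Egr2fl/fl and 24.7, 22.5 and 46.9 TPM in Egr2fl/fl, and did not pass (limma, difference 0.93 ± 0.41, adjusted p = 0.275).

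Ratios of chains within a library do not depend on library scaling, and 6 were compared with an exact 2-sided permutation test over the 6 libraries, whose smallest possible p is 0.1. The ratio of Csf2rb to Csf2ra, both needed for GM-CSF, averaged 0.274 ± 0.014 in Lyz2cre/+.Egr2fl/fl and 0.273 ± 0.027 in Egr2fl/fl (SD, n = 3 each; exact permutation p = 0.90). The difference in its log2 was 0.01, within the spread of the libraries. The ratio of Csf2ra to Csf1r averaged 0.343 ± 0.017 in Lyz2cre/+.Egr2fl/fl and 0.50 ± 0.02 in Egr2fl/fl, and no library of one genotype reached the other (log2 difference -0.54). Csf2rb2 over Csf2rb was 0.468 ± 0.009 in Lyz2cre/+.Egr2fl/fl and 0.530 ± 0.026 in Egr2fl/fl (log2 difference -0.18). Il10ra over Il10rb was 1.20 ± 0.03 in Lyz2cre/+.Egr2fl/fl and 1.36 ± 0.12 in Egr2fl/fl (log2 difference -0.17). Il6ra over Il6st was 2.05 ± 0.06 in Lyz2cre/+.Egr2fl/fl and 2.74 ± 0.37 in Egr2fl/fl (log2 difference -0.41). Each of these 4 ratios was lower in every Lyz2cre/+.Egr2fl/fl library and reached the smallest possible exact p of 0.1, or 0.15 after Benjamini-Hochberg adjustment over the 6 ratios, so none could pass the threshold. Il13ra1 over Il4ra averaged 0.880 ± 0.054 in Lyz2cre/+.Egr2fl/fl and 0.761 ± 0.070 in Egr2fl/fl, and these libraries overlapped (exact permutation p = 0.20).

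**Figure D3:**
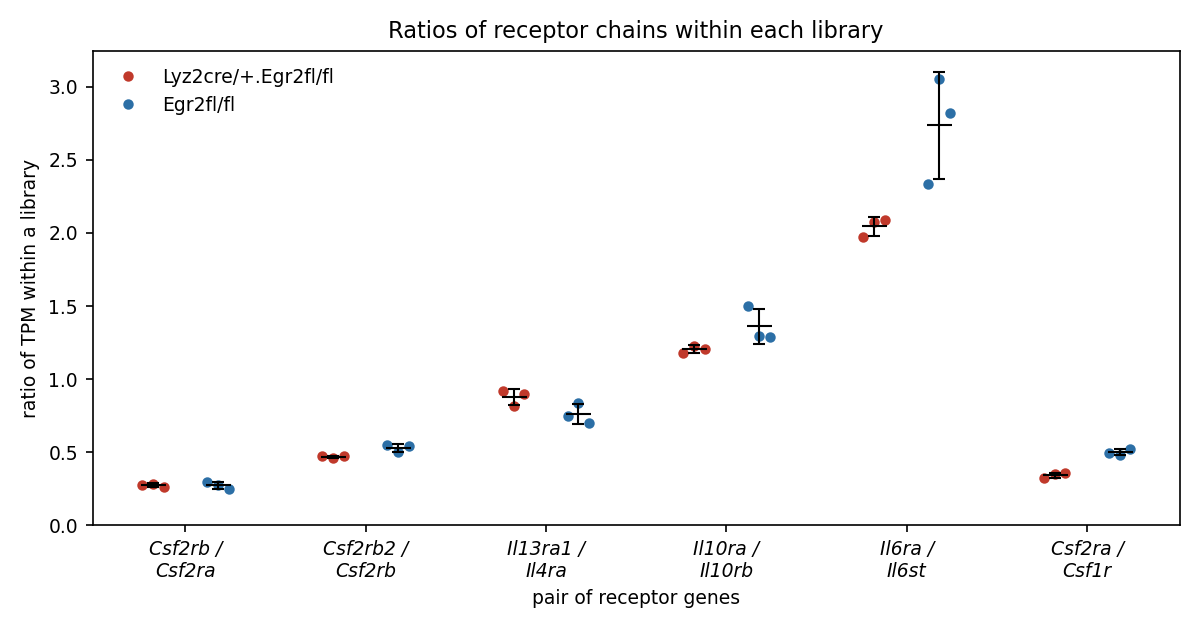
Ratio of TPM values of 2 receptor genes within each library, Lyz2cre/+.Egr2fl/fl in red and Egr2fl/fl in blue, with black bars for the mean and SD of 3 libraries. The ratio of Csf2rb to Csf2ra averages 0.274 in Lyz2cre/+.Egr2fl/fl and 0.273 in Egr2fl/fl, while Csf2ra over Csf1r averages 0.343 in Lyz2cre/+.Egr2fl/fl and 0.50 in Egr2fl/fl.

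Most genes listed around the receptors did not pass the test. Of 71 tested genes in 7 lists of ligands, partner chains, Janus kinases, STAT factors, feedback inhibitors, other receptors and regulators, 7 had a higher level in Lyz2cre/+.Egr2fl/fl and 7 a lower one, which is 19.7% against 6.24% of all tested genes. Their median log2 difference was -0.02, against 0.04 over all tested genes. Of the 8 tested ligands 1 was lower (Clcf1), and of the 7 tested partner chains 1 was higher and 1 lower (Lifr and Il11ra1), as described. Among 4 Janus kinases, Jak1, which serves gp130 and the IL-4 and IL-10 receptors, was higher, at 208, 199 and 207 TPM in Lyz2cre/+.Egr2fl/fl against 181, 176 and 171 TPM in Egr2fl/fl (difference 0.22 ± 0.05, limma adjusted p = 0.0431), and this call was lost whichever library was left out. Jak2, the kinase bound by the beta chain of the GM-CSF receptor, averaged 44.5 ± 2.5 TPM in Lyz2cre/+.Egr2fl/fl and 51.0 ± 2.7 TPM in Egr2fl/fl. These libraries did not overlap, and the difference did not pass (limma, adjusted p = 0.207).

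None of the 6 tested STAT factors passed in limma (1 with an unadjusted p below 0.05, and 0 passed with voom). Their differences lay between -0.04 and 0.19. Stat6, which acts downstream of IL-4 and IL-13, averaged 238 ± 5 TPM in Lyz2cre/+.Egr2fl/fl and 213 ± 13 TPM in Egr2fl/fl, without overlap (limma, adjusted p = 0.179). None of the 16 feedback inhibitors passed in limma either (2 with an unadjusted p below 0.05, and 0 passed with voom). Socs3, which is induced by and restrains gp130 signalling, averaged 153 ± 23 TPM in Lyz2cre/+.Egr2fl/fl and 153 ± 21 TPM in Egr2fl/fl. Cish, a target gene of STAT5, averaged 3.0 ± 0.9 TPM in Lyz2cre/+.Egr2fl/fl and 4.6 ± 0.4 TPM in Egr2fl/fl, without overlap (limma, adjusted p = 0.256). It was low, with a lower bound of 20 reads in the library with the fewest.

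Other cytokine and growth factor receptors held more calls. Of 21 tested, 5 were higher and 4 lower, beside 4.38% and 1.87% of all tested genes, with a median difference of -0.01. By the smallest p, these were led by Il21r, the IL-21 receptor gene, at 40.4, 40.7 and 38.7 TPM in Lyz2cre/+.Egr2fl/fl against 63.3, 61.0 and 68.2 TPM in Egr2fl/fl (difference -0.67 ± 0.07, limma adjusted p = 0.0025). Epor, the erythropoietin receptor gene, was higher at 12.5, 11.7 and 11.4 TPM in Lyz2cre/+.Egr2fl/fl against 3.01, 4.57 and 3.08 TPM in Egr2fl/fl (1.52 ± 0.17, adjusted p = 0.00349). Tnfrsf1b, which encodes a TNF receptor, was lower at 524, 537 and 520 TPM in Lyz2cre/+.Egr2fl/fl against 734, 684 and 662 TPM in Egr2fl/fl (-0.39 ± 0.05, adjusted p = 0.0063). Kit, the stem cell factor receptor gene, was higher at 4.82, 6.13 and 5.20 TPM in Lyz2cre/+.Egr2fl/fl against 1.57, 0.948 and 1.10 TPM in Egr2fl/fl (1.54 ± 0.20, adjusted p = 0.00683). The groups did not overlap for any of these 4, and each call was kept in every alternative that could be fitted. Kit could not be fitted with the filter at a mean of 5 TPM. Kit and Epor were low, with lower bounds of 13 and 16 reads in the library with the fewest. The summed endothelial and Kupffer cell markers were higher in the same libraries as Kit and Epor, and their part in these levels was not tested.

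Of 9 regulators of Csf1r and of the GM-CSF response, 1 was lower and 0 were higher in limma, while voom called 3. Over all tested genes limma called 1.87% lower and 4.38% higher. Bhlhe41, a repressor of transcription found in alveolar macrophages, was at 5.14, 6.76 and 4.42 TPM in Lyz2cre/+.Egr2fl/fl against 8.85, 10.3 and 10.7 TPM in Egr2fl/fl (difference -0.78 ± 0.17, limma adjusted p = 0.0424), and this call was kept in 1 of the 6 fits that leave out a library. Bhlhe40, its close relative, was at 89.9, 144 and 66.5 TPM in Lyz2cre/+.Egr2fl/fl against 182, 178 and 178 TPM in Egr2fl/fl, without overlap, and its difference of -0.90 ± 0.25 did not pass (limma, adjusted p = 0.0905). Cebpb, a transcription factor gene of myeloid cells, was at 350, 555 and 424 TPM in Lyz2cre/+.Egr2fl/fl against 948, 554 and 671 TPM in Egr2fl/fl. These ranges overlapped, and the difference of -0.70 ± 0.23 did not pass (limma, adjusted p = 0.142). Spi1, which encodes PU.1, a factor that binds the Csf1r gene in macrophages, averaged 646 ± 22 TPM in Lyz2cre/+.Egr2fl/fl and 653 ± 17 TPM in Egr2fl/fl, with a difference of -0.02 ± 0.05 (limma, adjusted p = 0.906). Pparg, induced by GM-CSF in alveolar macrophages, averaged 96.9 ± 2.4 TPM in Lyz2cre/+.Egr2fl/fl and 101.2 ± 3.6 TPM in Egr2fl/fl (adjusted p = 0.615).

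**Figure D4:**
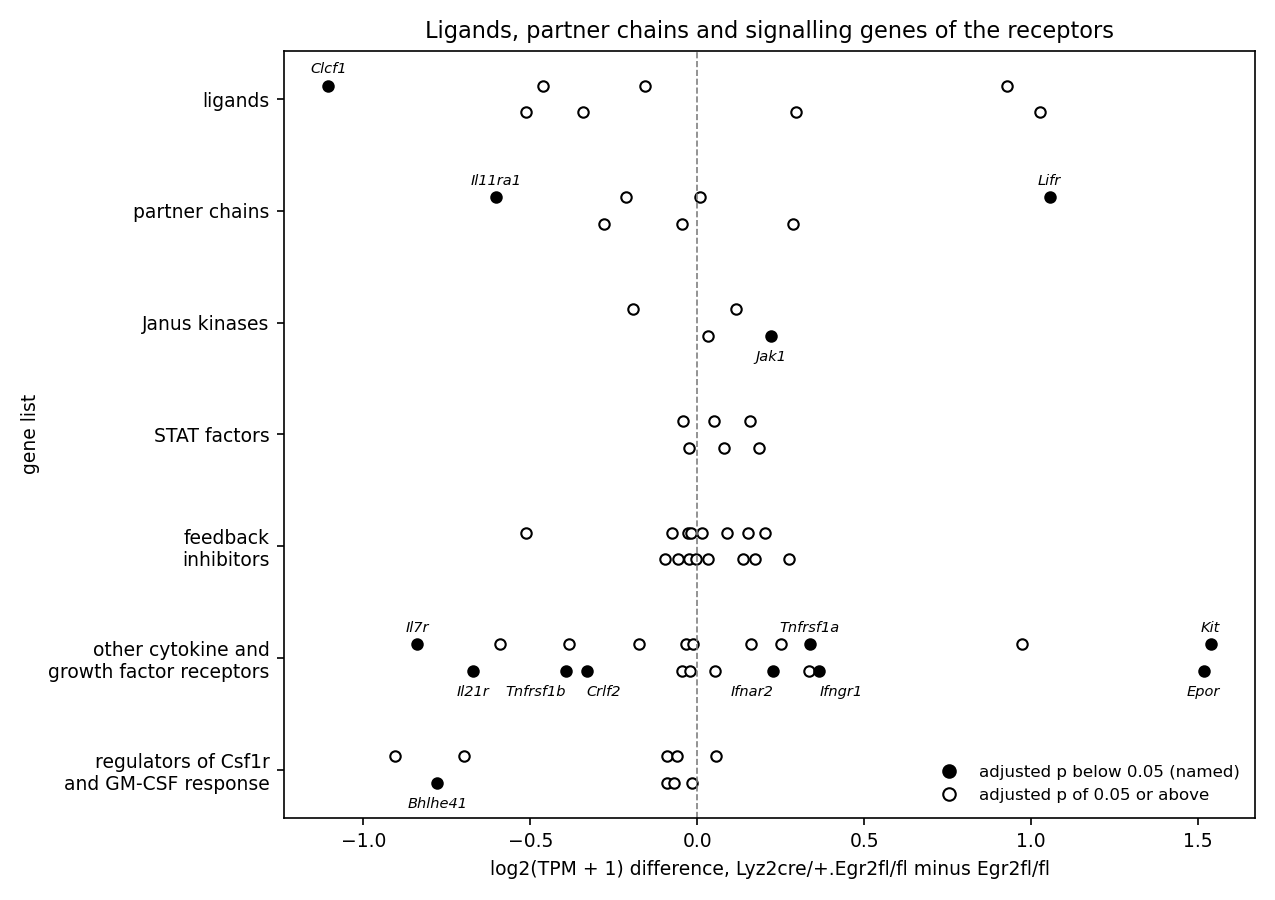
Difference in log2(TPM + 1), Lyz2cre/+.Egr2fl/fl minus Egr2fl/fl, for the 71 tested genes of 7 lists around the receptors, 1 point per gene. Filled, named points passed an adjusted p below 0.05 in limma: 7 lie right of 0 and 7 left of it, and none are among the STAT factors or feedback inhibitors.

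**Figure D5:**
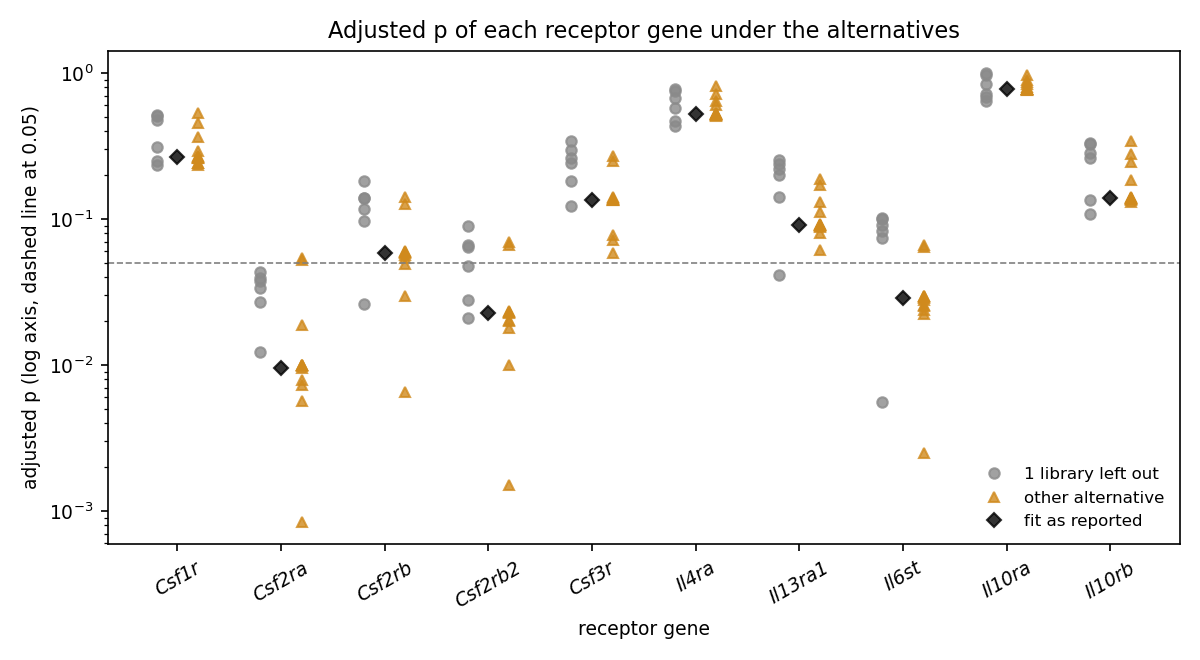
Adjusted p of each of the 10 receptor genes on a log axis in the fit reported here (black), with 1 library left out (grey) and under the other alternatives (orange), with a dashed line at 0.05. Csf2ra stays below the line whichever library is left out and crosses it in 2 other alternatives. Csf2rb, Csf2rb2, Il13ra1 and Il6st lie on either side of it, and Csf1r, Csf3r, Il4ra, Il10ra and Il10rb lie above it throughout.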

How the data were processed

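Per the labels, total RNA from the sorted cells (RNeasy Micro kit) was turned into libraries with a directional kit. The study's methods tie this kit to different cells and give the rest of the bulk samples a Nextera XT preparation after SMART-Seq HT amplification, which does not keep the strand, so the strand information of these reads is uncertain. The authors trimmed reads with Trimmomatic 0.39.0, aligned them with HISAT2 2.2.1 to GRCm38 (mm10), discarded duplicates, counted the rest with featureCounts 2.0.1 and deposited TPM values, 1 column per library. The setting for strand, and the treatment of reads that match several genes, are not given in the sources used here. A TPM value is a share of its library, and a change of abundant genes therefore shifts all others.

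Groups came from the genotype in the labels. The 13777 of 13886 genes that averaged 1 TPM or more were compared across all genes on log2(TPM + 1) with limma 3.58.1 (R 4.3.3, moderated test with a mean-variance trend, 2-sided, Benjamini-Hochberg adjustment over all tested genes, threshold 0.05). Fold changes on this scale understate those of low genes. Values after ± are SD for TPM and ratios (n = 3) and SE for log2 differences. The steps of the deposited TPM values were whole multiples of 1 read for 100% of genes (tolerance 0.001 of a read), and the smallest whole numbers, which are lower bounds, served as reads for voom as an alternative only. Counting errors cover counting only.

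The receptor genes, the lists of ligands, partners, signalling genes and markers, and the promoter motifs were chosen with earlier results of these data known, so they are no independent support. The text names all 10 receptor genes, Egr2, every ligand, partner chain, Janus kinase or feedback inhibitor that passed, a fixed set of ligands and partners whether or not they passed, and the 4 passing genes with the smallest p of each other list. Stat6, Socs3, Cish, Jak2, Spi1, Pparg, Bhlhe40, Cebpb and the named macrophage and hepatocyte markers were named for their roles after their values were seen. Alternatives were other pseudocounts, filters and scalings, limma without trend or with robust variances, voom, a replicate block, a threshold of 0.01 and leaving out each library. A planned comparison of protein sequences was replaced by one of coding bases from GENCODE vM21, aligned with Biopython.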

Additional observations from a re-analysis of the deposited data

How the results depend on the processing

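Egr2 passed under all 18 alternatives, and the directions of 9 of the 10 receptor genes were kept in all of theirs. Il10ra, which never passed, turned to -0.0179 with median-of-ratios scaling. Without the mean-variance trend 0 receptor genes were higher and 0 lower in limma (6 with an unadjusted p below 0.05), with the differences of Csf2ra (-0.41), Csf2rb2 (-0.57) and Il6st (0.68) at adjusted p of 0.0543, 0.0662 and 0.0662, 160 of all genes lower, and 4 genes higher and 3 lower in the pathway lists. With the replicate number as a block, again 0 were higher and 0 lower in limma (7 with an unadjusted p below 0.05), with Csf2ra (-0.41), Csf2rb2 (-0.57) and Il6st (0.68) at adjusted p of 0.0523, 0.0689 and 0.0638, 301 of all genes higher and 130 lower, and 4 genes higher and 3 lower in the pathway lists. Whether the numbers pair the libraries could not be told with 3 libraries per genotype. Deviations of same-numbered libraries from their group means correlated at -0.03, 0.07 and -0.01, and not every library correlated best with its own number. The deposited column of Egr2fl/fl replicate 3 bears a different number, so the replicate numbers may not mark pairs. Csf2rb passed with a filter at a mean of 5 TPM (-0.39), median-of-ratios scaling (-0.45) and voom (-0.43). At an adjusted p below 0.01, 0 receptor genes were higher and 1 lower, Csf2rb2 (-0.57) and Il6st (0.68) being lost, with 243 of all genes higher and 98 lower, and 3 genes higher and 3 lower in the pathway lists. The number of genes lower with voom (382) was also above the 257 reported.

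Leaving out 1 library at a time gave 0 to 1 receptor genes higher and 1 to 3 lower, 303 to 437 of all genes higher and 136 to 202 lower, and 3 to 5 genes of the pathway lists in each direction. The differences ranged from -0.46 to -0.37 for Csf2ra, -0.49 to -0.30 for Csf2rb, -0.64 to -0.45 for Csf2rb2, 0.24 to 0.37 for Il13ra1 and 0.59 to 0.83 for Il6st. The log2 ratio of Csf2rb to Csf2ra, 0.01 over all libraries, ranged from -0.0618 (without Egr2fl/fl replicate 3) to 0.0794 and was -0.0224 without Lyz2cre/+.Egr2fl/fl replicate 2. With 2 libraries in a group fewer samples carry the estimate of the spread; the causes of the other changes were not tested.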
